A study of Mus musculus with 4 samples.

Results

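The interval from Wnt6 to Ihh on mouse chromosome 1 was taken as chr1:74803201-75123200 of the mm9 build, a stretch of 320 kb. It comprised every bin of 6.4 kb that lay fully within these limits, which gave 50 of the 558 bins of the captured chromosome 1 region and 1275 pairs of bins, each bin paired with itself included. The annotation of this build (GENCODE M1, NCBIM37) places the starts of 8 protein-coding genes there. In the order of the chromosome these are Wnt6, Wnt10a, Cdk5r2, Fev, Cryba2, Ccdc108, Ihh and Nhej1. Contacts were measured by tiled Capture-C, in which cross-linked and ligated chromatin is enriched with probes that tile chosen genomic regions and ligated pairs are sequenced. The cells were mouse embryonic stem cells of the E14 line, which are pluripotent, and the deposited maps carry no expression values, so whether the developmental genes were silent in these cells could not be checked.

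Each of the 4 groups was a single library. All lines carried arrays of TetO and LacO operator sites inserted on chromosome 15 and a cohesin subunit, RAD21, fused to a HaloTag and an FKBP degron. Line 1B1 additionally had 3xCTCF sites flanking the arrays, while lines 1A2 and 1F4 had none, and 1F4 kept the promoters of the resistance gene cassettes. Each line was 1 clone. The group 1B1 -cohesin was line 1B1 exposed to 500 nM dTAG-13 for 2 h, a compound that triggers degradation of the tagged RAD21. The arrays, the 3xCTCF sites and the cassette promoters were on chromosome 15, while reporter constructs were inserted by transposition at sites not analysed here. On chromosome 1 the lines 1A2, 1F4 and 1B1 served as 3 untreated libraries whose spread shows how far clones and libraries differed without treatment. With 1 library per group no test between groups was possible, errors are counting errors of 1 SD from the reads behind each value, and the treatment cannot be told apart from other differences between the 2 libraries of 1B1.

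Whole read numbers behind the balanced values amounted to 3214144 for 1A2, 4089968 for 1F4, 3234581 for 1B1 and 3622612 for 1B1 -cohesin over all captured regions. Pairs within the interval held 115043, 150675, 111808 and 135482 of these reads, respectively. The 2 bins before the last, chr1:75104001-75110400 and chr1:75110401-75116800, had no values in any library, and all of their 6400 bases are unknown in the reference sequence. The 48 bins with values gave 1128 pairs of different bins. The distance across this gap on the chromosome is therefore not known, which touches every value that joins its sides.

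Wnt6 and Wnt10a encode secreted Wnt ligands that act in epithelial, tooth and limb development. Fev encodes an ETS transcription factor of serotonergic neurons, Cryba2 a beta-crystallin of the lens family, and Ihh the hedgehog ligand that paces chondrocyte maturation in growing bone. Cdk5r2 encodes a neuronal activator of the kinase CDK5, and Nhej1 a factor that joins broken DNA ends and whose introns are known to contain enhancers of Ihh. Cohesin extrudes chromatin loops that are halted at CTCF-bound sites, which yields topologically associating domains, stretches whose sequences contact each other more often than their neighbours.

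The sequences at the gene starts differed in their density of CpG dinucleotides, a property of the genome and not of the maps. The bin with the Cdk5r2 start held 301 CpG and the bin with the Ihh start 257, ranks 1 and 2 of the 558 bins of the region, whose median was 61. The Wnt6 start bin held 194, the Wnt10a bin 152, the Cryba2 bin 133 and the Fev bin 119. Within the 200 bases before the annotated start there were 25 CpG at Wnt6, 3 at Wnt10a, 22 at Fev, 9 at Cryba2 and 21 at Ihh. The stretches before Ihh and Fev, the pair of developmental genes that ended farthest above its untreated range, and those before Wnt6 and Wnt10a, neighbours of unlike CpG density, are given 5′ to 3′ in the direction of transcription with each CpG in capitals.
Ihh (chr1:74998247-74998446, minus strand): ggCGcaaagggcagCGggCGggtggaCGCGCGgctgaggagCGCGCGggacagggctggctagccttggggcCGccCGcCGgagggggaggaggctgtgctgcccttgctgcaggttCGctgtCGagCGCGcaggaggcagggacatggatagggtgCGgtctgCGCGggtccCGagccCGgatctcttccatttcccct
Fev (chr1:74931994-74932193, minus strand): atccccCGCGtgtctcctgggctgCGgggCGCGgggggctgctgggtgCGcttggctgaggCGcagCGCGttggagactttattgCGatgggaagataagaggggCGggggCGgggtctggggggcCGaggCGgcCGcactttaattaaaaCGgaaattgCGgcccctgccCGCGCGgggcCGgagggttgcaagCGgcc
Wnt6 (chr1:74818266-74818465, plus strand): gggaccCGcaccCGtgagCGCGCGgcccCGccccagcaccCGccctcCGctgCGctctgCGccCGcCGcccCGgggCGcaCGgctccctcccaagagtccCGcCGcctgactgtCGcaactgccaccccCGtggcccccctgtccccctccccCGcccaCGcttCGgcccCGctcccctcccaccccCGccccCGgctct
Wnt10a (chr1:74837890-74838089, plus strand): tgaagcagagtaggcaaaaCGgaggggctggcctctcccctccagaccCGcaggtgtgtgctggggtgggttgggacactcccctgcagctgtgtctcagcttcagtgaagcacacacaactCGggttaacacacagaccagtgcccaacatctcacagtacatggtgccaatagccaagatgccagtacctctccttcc

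Matches to the core consensus of CTCF, a 12-letter motif searched on both strands, were present in 26 of the 558 bins (4.66%). The interval had 6 matches in 5 bins, 4 on the plus and 2 on the minus strand. Those described with the boundaries and focal contacts are printed 5′ to 3′ on their own strand, with the 12 matched letters in capitals and 9 bases on each side.
chr1:74806605-74806616, minus strand: tcctagaaaCCAGCAGAGGGCatcatatcc
chr1:74831237-74831248, plus strand: tattagattCCAGCAGGGGGCgctgtctga
chr1:74834593-74834604, plus strand: tcaaatagaCCACCAGAGGGCgtccaggat
chr1:74927532-74927543, plus strand: tctctcggaCCAGCAGAGGGCgcgcaccac
The first and the last of these lay between genes in 2 of the 3 boundary bins described next, and the other boundary bin held no match. The second lay in the untranslated part of Wnt6 and the third between Wnt6 and Wnt10a, both in the bin beside the Wnt6 anchor of the focal contacts. The others lay in an intron of Wnt10a on the minus strand (chr1:74846808-74846819) and between Cryba2 and Ccdc108 on the plus strand (chr1:74941720-74941731). A match is a description of letters and no evidence of binding.

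In the untreated lines the interval was split by 1 boundary into a domain with Wnt6, Wnt10a and Cdk5r2 and a domain that ran from the Fev start over Cryba2, Ccdc108 and Ihh to Nhej1. Boundaries were called on the insulation score, the log2 of the mean signal crossing a bin within 10 bins on each side, relative to the mean over the region, as minima of the mean profile of 1A2 and 1F4. Of 20 boundaries in the region 3 lay in the interval. The first was the bin at its edge, chr1:74803201-74809600, whose centre lies 12.1 kb from the Wnt6 start. The second, chr1:74924801-74931200, holds most of the Fev gene body, and the Fev start lies 3.99 kb from its centre. The third, chr1:75116801-75123200, adjoins the stretch of unknown sequence.

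**Figure D1:**
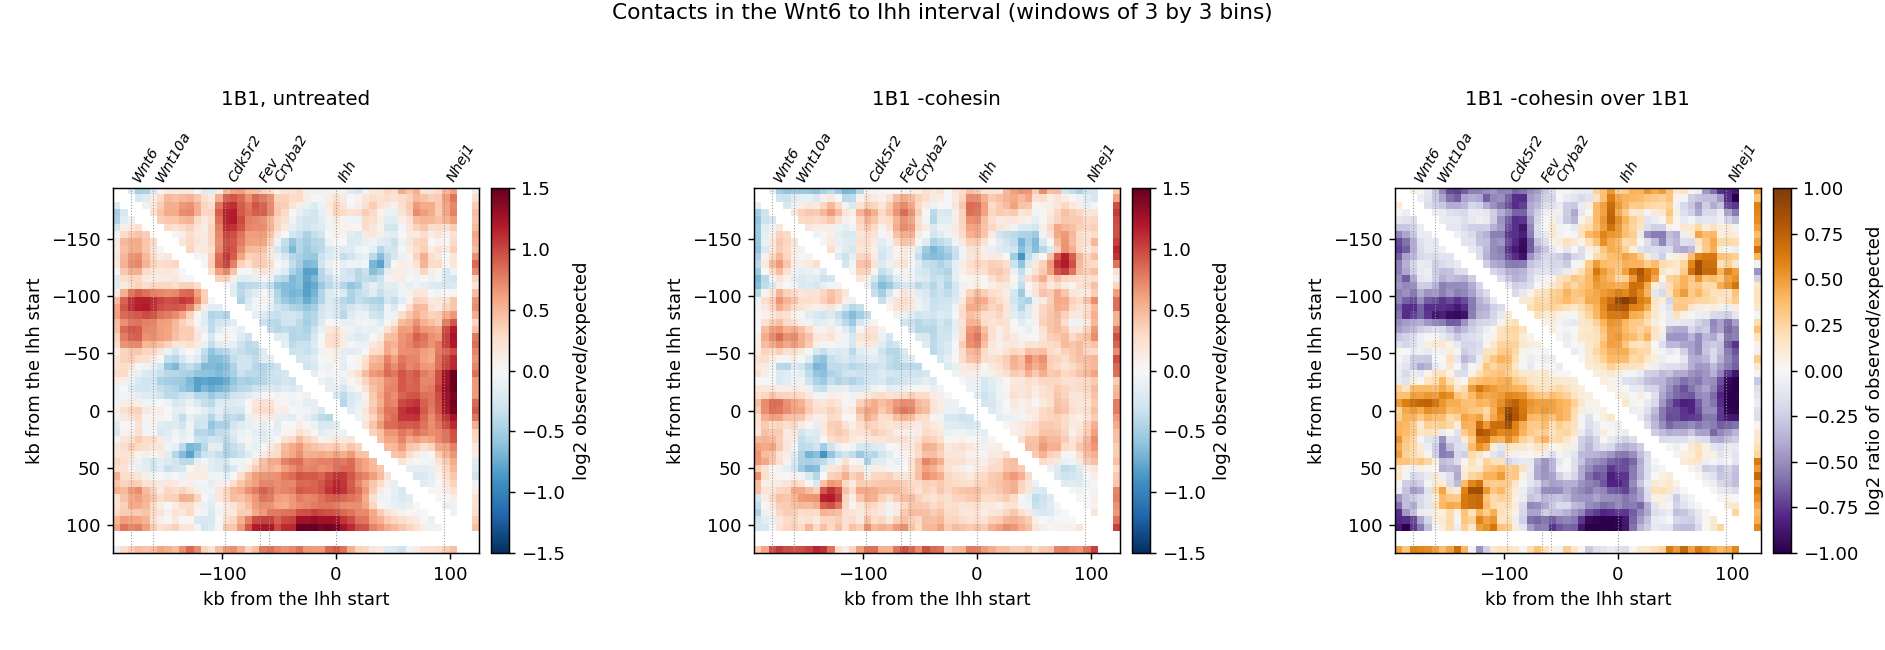
Contact maps of the interval in 1B1 and 1B1 -cohesin as log2 observed/expected in windows of 3 by 3 bins, and the log2 ratio of both, with distance from the Ihh start in kb on both axes. Dotted lines mark gene starts and the white band near the end the 2 bins without values. The red blocks inside both domains of 1B1 fade in 1B1 -cohesin, while the Ihh column towards Wnt6 gains.

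The domains lost contacts relative to other pairs at the same separation after dTAG-13, and the pairs between them gained. Values are observed/expected, the balanced signal divided by the mean over the captured region of chromosome 1 at the same separation in the same library, so a value of 1 is the regional average. In the Wnt domain, the 115 kb between the first and the second boundary, the mean was 1.44 in 1A2, 1.49 in 1F4, 1.42 in 1B1, against 1.05 in 1B1 -cohesin. That is a log2 change of -0.44 ± 0.02 (counting error) against 1B1, where the untreated lines differed by at most 0.08. The Ihh domain, 186 kb between the second and the third boundary, gave 1.47, 1.49 and 1.44 in the untreated lines in the same order and 1.17 in 1B1 -cohesin, a change of -0.29 ± 0.02. Pairs with 1 bin in each domain gave 1.07, 1.02 and 1.00 in the untreated lines and 1.12 in 1B1 -cohesin, a change of 0.16 ± 0.03. In all 3 blocks the treated library lay outside the range of the untreated libraries.

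Both domain values depended on the division by expected. Without it, with maps scaled to the same sum, the Wnt domain changed by 0.07 and the Ihh domain by 0.12, with the largest signal in pairs at short separation, which rose. These undivided values also depend on the scaling, which was not varied for the domains. With totals over all separations, the undivided change of the interval at 2 to 7 bins was 0.13 in place of 0.37. Among pairs 8 or more bins apart the undivided signal changed by -0.53 in the Wnt domain, by -0.38 in the Ihh domain and by -0.03 between the domains. The loss inside the domains beyond 51.2 kb thus held on both scales, whereas the gain between them was a gain relative to other pairs at the same separation.

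The Wnt domain had the lowest change of the 19 stretches of at least 10 bins between neighbouring boundaries in the region, which ranged from -0.44 to 0.26 with a median of -0.14. In 1B1 it had ranked 3 in observed/expected and in 1B1 -cohesin it ranked 14. The Ihh domain ranked 2 in 1B1, against 4 in 1B1 -cohesin, and its change was the sixth lowest. Pairs between both domains had the fifth highest change among 18 pairs of neighbouring stretches, which ranged from -0.32 to 0.71. These ranks describe 1 pair of libraries.

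The boundaries responded unequally. At the first boundary the insulation score was -0.62 ± 0.03 in 1A2, -0.57 ± 0.03 in 1F4, -0.48 ± 0.03 in 1B1, against -0.49 ± 0.03 in 1B1 -cohesin, so the treated library lay within the untreated range at this bin. The lowest treated score nearby was at the Wnt6 start bin, with -0.56. There the untreated lines had -0.47, -0.38 and -0.29, so the treated library was below them all. At the second it was -0.36, -0.33 and -0.33 in the untreated lines and -0.15 in 1B1 -cohesin, a rise of 0.18 ± 0.03 against an untreated range of 0.03. This rise holds for the called bin alone. The lowest treated score nearby was at the Cdk5r2 start bin, with -0.20 against 0.10, 0.09 and 0.08 in the untreated lines. In 1B1 the lowest score nearby was at the Cryba2 start bin, with -0.35. At the third it was -0.29, -0.41 and -0.25 in the untreated lines and 0.04 in 1B1 -cohesin, a rise of 0.28 ± 0.05. The score was higher after treatment at 17 of the 20 boundaries of the region, and the median change over all 20 was 0.16.

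The crests between boundaries fell further than the boundaries rose. The least insulated bin of the Wnt domain, chr1:74880001-74886400 between Wnt10a and Cdk5r2, had a score of 0.77 in 1A2, 0.78 in 1F4, 0.68 in 1B1, against 0.25 in 1B1 -cohesin. That of the Ihh domain, chr1:75040001-75046400 in the Nhej1 body, had 0.87, 0.91 and 0.85 in the untreated lines and 0.49 in 1B1 -cohesin. The falls from 1B1 were 0.44 and 0.36.

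**Figure D2:**
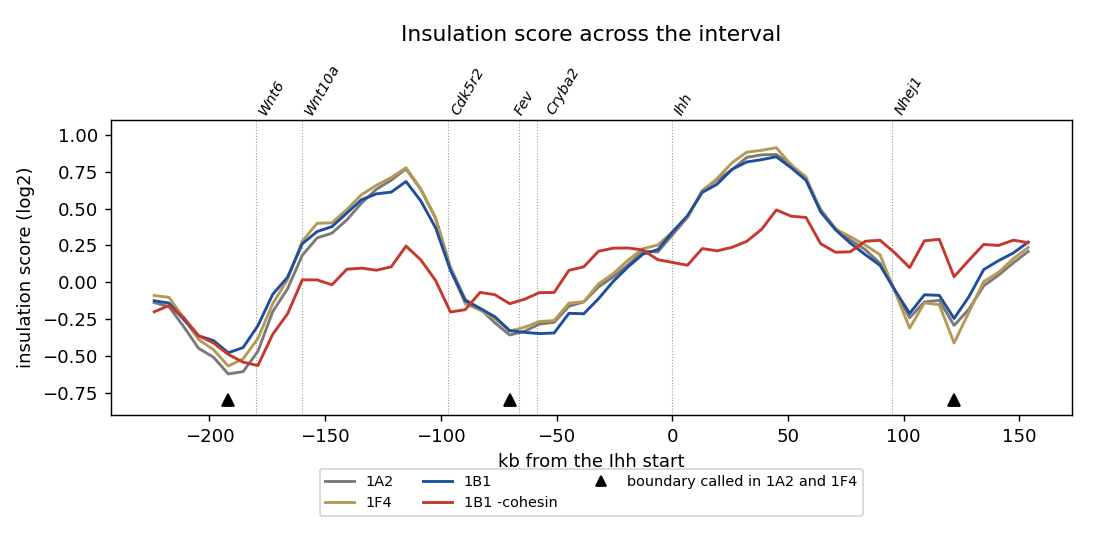
Insulation score (log2) in the 4 libraries against distance from the Ihh start in kb, with triangles at the 3 boundaries called in 1A2 and 1F4. The untreated profiles run together. The 1B1 -cohesin profile has lower crests, at 0.25 and 0.49 in place of 0.68 and 0.85 in 1B1. It lies below the untreated lines at the Wnt6 and Cdk5r2 start bins.

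The position of the boundaries was less certain than their number. Signal without balancing also gave 3 boundaries, of which 1 lay within 1 bin of those called, and a square of 5 bins gave 4. With that square the boundary nearest the second one was chr1:74944001-74950400. This placed the Fev and Cryba2 starts on the side of the Wnt genes, so their domain depends on the setting. The change at the first boundary ranged from -0.13 with a square of 20 bins to 0.22 with a square of 5 bins, so its direction is not settled. The rises at the second and the third boundary kept their direction under each of these settings, but their sizes did not hold: the second was 0.30 without balancing and the third was 0.13 with a square of 20 bins.

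As a whole, the interval was rich in contacts for its distances in each of the 4 libraries. Mean observed/expected over pairs 2 to 49 bins apart was 1.26 ± 0.01 in 1A2, 1.255 ± 0.01 in 1F4, 1.22 ± 0.01 in 1B1, against 1.15 ± 0.01 in 1B1 -cohesin. The other 9 stretches of 50 bins laid end to end through the region ranged from 0.828 to 1.18 in the untreated lines and from 0.856 to 1.08 in 1B1 -cohesin. The treated value lay below all 3 untreated ones, and the interval at its given edges was above each other stretch. Moved 5 bins lower, it gave 1.15, 1.13 and 1.12 in the untreated lines and 1.08 in 1B1 -cohesin, below the highest other stretch in the untreated lines and within the counting error of it in 1B1 -cohesin. Moved 5 bins higher, it gave 1.24, 1.22 and 1.21 in the untreated lines and 1.19 in 1B1 -cohesin, above the highest other stretch in each library.

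Observed/expected in 1B1 -cohesin lay below the untreated lines in 3 of 4 bands of separation. Pairs 2 to 7 bins apart (12.8 to 44.8 kb) had 1.12, 1.15 and 1.11 in the untreated lines and 1.02 in 1B1 -cohesin. Pairs 8 to 15 bins apart (51.2 to 96.0 kb) had 1.36, 1.38 and 1.34 in the untreated lines and 1.15 in 1B1 -cohesin. The treated value was lower in both of these bands. Pairs 16 to 30 bins apart (102.4 to 192.0 kb) had 1.28, 1.24 and 1.22 in the untreated lines and 1.17 in 1B1 -cohesin. Pairs 31 to 49 bins apart (198.4 to 313.6 kb) had 1.28, 1.22 and 1.21 in the untreated lines and 1.31 ± 0.04 in 1B1 -cohesin, which was above them.

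Without division by expected, and with both maps brought to an equal total over pairs at least 2 bins apart, signal in the interval rose by a log2 change of 0.37 ± 0.02 from 1B1 to 1B1 -cohesin at 2 to 7 bins. It fell by 0.17 ± 0.02 at 8 to 15 bins, by 0.32 ± 0.02 at 16 to 30 bins and by 0.29 ± 0.05 at 31 to 49 bins. Differences between untreated lines in these bands ranged from -0.20 to 0.10. At 2 to 7 bins 1B1 was the lowest untreated line, and the rise was 0.27 over 1A2 and 0.17 over 1F4. The rise over 1F4 was smaller than the difference between 1F4 and 1B1. In the other bands the falls over 1A2 and 1F4 were larger than over 1B1. The sizes depended on the scaling. With maps brought to an equal total over all separations, the change was 0.13 at 2 to 7 bins and -0.42 at 8 to 15 bins. The fall at 8 to 15 bins was larger than in the other 9 stretches, which ranged from -0.13 to 0.34, while the rise at 2 to 7 bins was smaller than in 8 of them.

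Maps of the interval were alike among the untreated lines and unlike the treated one. Over 985 windows of 3 by 3 bins, at least 3 bins apart and with at least 50 reads in each library, Pearson's r of log2 observed/expected was 0.938 to 0.958 between untreated lines. Between 1B1 -cohesin and the untreated lines it was 0.540 to 0.598. Windows overlap and share libraries, so these values are a description.

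Against the range of the 3 untreated libraries, 210 of the 985 windows (21.3%) were at most 80% of the lowest in 1B1 -cohesin, beside 11% of the 20055 windows tested in the region. At least 25% above the highest were 96 windows (9.75%), beside 12.8% in the region. The calls split by block. In the Wnt domain 66 of 120 windows were lower and none higher, and in the Ihh domain 118 of 300 were lower and 3 higher. Between the domains 9 of 445 windows were lower and 74 were higher, or 16.6%. The low windows were more frequent in the domains than in the region, but these shares are not independent of how the domains were chosen. Domain edges are minima of 1A2 and 1F4, which favours high untreated values inside, and both lines also set the untreated range. The regional share covers all windows and not those inside other stretches between boundaries, of which 13 of 19, these domains included, fell from 1B1. The high windows between the domains exceeded the regional share only slightly.

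**Figure D3:**
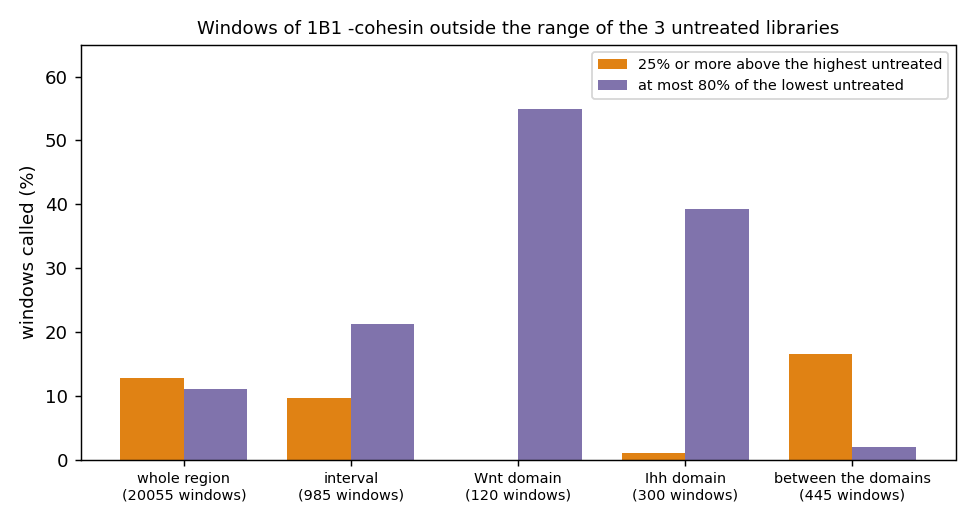
Percentage of windows in 1B1 -cohesin that were at least 25% above the highest or at most 80% of the lowest of the 3 untreated libraries, for the region, the interval and its blocks, with the number of windows tested. In the Wnt domain 55.0% of windows were lower and in the Ihh domain 39.3%.

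Contacts among the bins of the 5 developmental genes split by whether Ihh was involved. In windows of 3 by 3 bins, all 4 pairs with Ihh lay above the highest untreated library in 1B1 -cohesin. None of the 5 other pairs at least 3 bins apart did. The split rested on the division by expected. Without it, 2 of the 4 Ihh pairs lay above the untreated range, as did Wnt6-Wnt10a. Over the region, 44.1% of windows lay above the highest untreated library by any amount and 33.3% below the lowest, so positions just outside the range are common. No pair was 25% or more above the highest or at 80% or less of the lowest.

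Fev-Ihh, 10 bins apart inside the Ihh domain, gave observed/expected of 1.35 ± 0.05 in 1A2, 1.40 ± 0.05 in 1F4, 1.22 ± 0.05 in 1B1, against 1.74 ± 0.05 in 1B1 -cohesin. Its window includes the boundary bin. The log2 change from 1B1 was 0.51 ± 0.07, and the treated value was 1.24 times the highest untreated value. Cryba2-Ihh, 9 bins apart, gave 1.32, 1.41 and 1.22 in the untreated lines and 1.68 in 1B1 -cohesin. Its change was 0.46 ± 0.07. Both gains opposed the fall of the domain they lie in by the boundaries called, a placement that depended on the insulation square.

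Across the second boundary, Wnt6-Ihh, 28 bins apart, gave 1.49 ± 0.08 in 1A2, 1.32 ± 0.07 in 1F4, 1.26 ± 0.08 in 1B1, against 1.78 ± 0.10 in 1B1 -cohesin. Wnt10a-Ihh, 25 bins apart, gave 1.40, 1.19 and 1.06 in the untreated lines and 1.51 ± 0.10 in 1B1 -cohesin. The log2 changes from 1B1 were 0.50 ± 0.12 and 0.51 ± 0.14. For both pairs 1A2 was the highest untreated line and 1B1 the lowest, and Wnt10a-Ihh in 1B1 -cohesin exceeded 1A2 by about the counting error.

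The rise of the pairs of Ihh with Fev and Cryba2 did not depend on the division by expected, and that of the pairs with Wnt6 and Wnt10a did in part. Without division, on maps scaled to the same sum, Fev-Ihh was 48.8, 51.4 and 43.1 in the untreated lines and 65.1 in 1B1 -cohesin. Wnt6-Ihh was 23.0, 20.0 and 19.1 in the untreated lines and 21.6 in 1B1 -cohesin, within the untreated range.

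Contacts of the Wnt genes with Fev and Cryba2 were above the expected value in each library. Wnt6-Fev, 18 bins apart, gave 2.03 ± 0.08 in 1A2, 1.92 ± 0.07 in 1F4, 1.84 ± 0.07 in 1B1, against 1.64 ± 0.07 in 1B1 -cohesin. Among all windows of the region at that separation, 4.52% were higher in 1B1 and 2.65% in 1B1 -cohesin. This was the highest standing of the 4 pairs in both libraries, though Wnt10a-Fev stood higher in 1A2. Wnt6-Cryba2, 19 bins apart, gave 1.85, 1.75 and 1.64 in the untreated lines and 1.48 in 1B1 -cohesin. Both were below the untreated range, with log2 changes from 1B1 of -0.17 ± 0.09 and -0.15 ± 0.10, under 2 counting errors each.

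Wnt10a-Fev, 15 bins apart, gave 2.12, 1.89 and 1.62 in the untreated lines and 1.63 in 1B1 -cohesin. Wnt10a-Cryba2, 16 bins apart, gave 1.86, 1.66 and 1.44 in the untreated lines and 1.56 in 1B1 -cohesin. Windows at the same separation were higher than Wnt10a-Fev in 9.01% and than Wnt10a-Cryba2 in 12.6% of cases in 1B1. The shares were 2.82% and 4.33% in 1B1 -cohesin, 2.81% and 5.25% in 1A2 and 5.79% and 8.97% in 1F4. For these pairs the untreated lines differed among themselves more than 1B1 differed from its treated counterpart. Wnt6-Wnt10a, 3 bins apart, gave 1.13, 1.16 and 1.11 in the untreated lines and 0.949 in 1B1 -cohesin, a log2 change of -0.23 from 1B1 that turned to 0.34 without division by expected. Fev and Cryba2 start in neighbouring bins, so their value of 0.964 to 1.00 in the 4 libraries mainly repeats the diagonal.

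**Figure D4:**
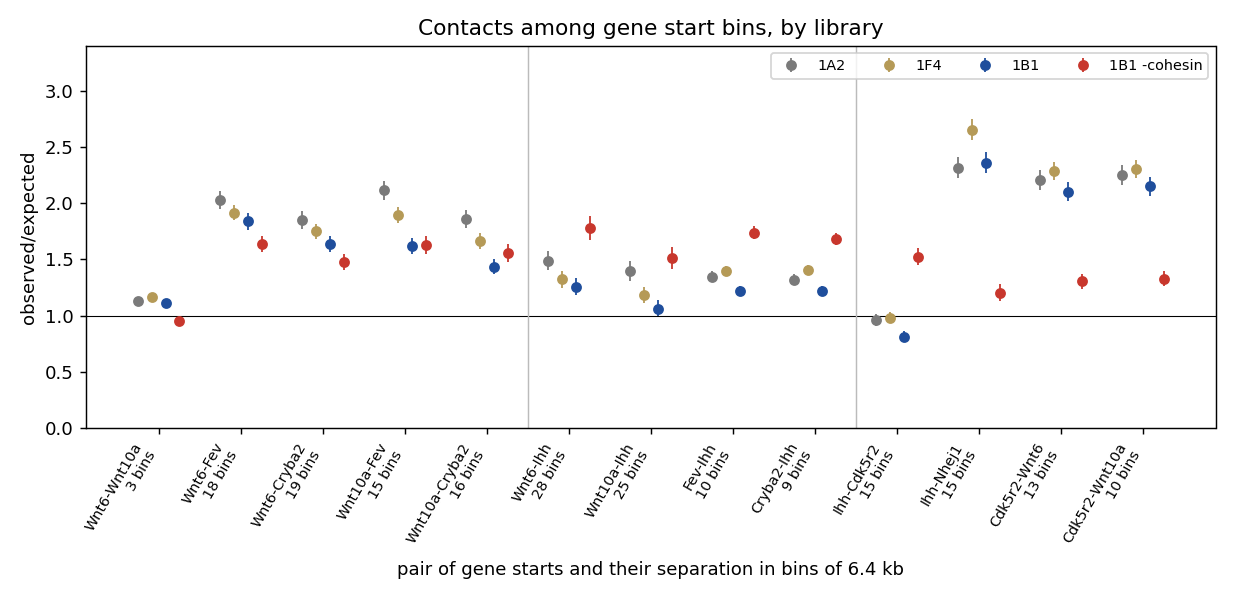
Observed/expected of windows of 3 by 3 bins between gene start bins in the 4 libraries, with counting errors of 1 SD and the separation of each pair in bins. In the middle group the 4 pairs with Ihh are highest in 1B1 -cohesin, and in the right group Ihh-Nhej1 and the pairs of Cdk5r2 with the Wnt genes are lowest there.

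Ihh lost contact relative to expected with most bins on the Nhej1 side and gained it with most bins towards Wnt6. The 3 bins of the interval with the highest untreated contact with Ihh, by the mean of 1A2 and 1F4 at least 5 bins away, all lay on the Nhej1 side. These were chr1:75097601-75104000 just before the Nhej1 start, chr1:75059201-75065600 inside Nhej1 and chr1:75091201-75097600, which holds the Nhej1 start. The first had 2.82 ± 0.20 in 1A2, 3.26 ± 0.20 in 1F4, 2.92 ± 0.20 in 1B1, against 1.39 ± 0.16 in 1B1 -cohesin, and 1870 of its 6400 bases are unknown in the reference. The second had 2.72, 2.81 and 2.64 in the untreated lines and 1.40 in 1B1 -cohesin. The third had 2.48, 2.87 and 2.41 in the untreated lines and 1.32 in 1B1 -cohesin.

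These falls were log2 changes of -1.07 ± 0.20, -0.92 ± 0.11 and -0.87 ± 0.17 from 1B1. Over the 14 bins of the Nhej1 body, contact with Ihh averaged 1.75 ± 0.04 in 1A2, 1.84 ± 0.03 in 1F4, 1.75 ± 0.03 in 1B1, against 1.15 ± 0.03 in 1B1 -cohesin, a change of -0.61 ± 0.05. Without division by expected the change was -0.32 over the same bins. Among pairs 8 or more bins apart it was -0.70 with and -0.65 without division. Of 15 bins on this side, 12 lay below the untreated range and none above it, where 33.3% of the windows of the region lay below. Those windows had 3 by 3 bins and at least 50 reads. The profile joins the Ihh window to single bins, some with fewer reads, so the regional share is only a rough guide.

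Over the 28 bins towards Wnt6, contact with Ihh averaged 1.16 ± 0.02 in 1A2, 1.09 ± 0.02 in 1F4, 1.02 ± 0.02 in 1B1, against 1.38 ± 0.03 in 1B1 -cohesin. The change from 1B1 was 0.43 ± 0.04, or 0.42 without division by expected, where the untreated lines differed by up to 0.17. The undivided change was not run with totals over all separations, which lowered the undivided change in each band of the interval. Of these bins, 20 lay above the untreated range, 8 within it and none below it, where 44.1% of the windows of the region lay above. The same limit applies to this share. In 1B1 -cohesin the profile peaked at the Wnt6 start bin, with 1.91 ± 0.15, and at the Fev start bin, with 1.89 ± 0.10. Both bins were also among the highest on this side in the untreated lines. The Wnt6 bin had 1.66, 1.55 and 1.35 there and the Fev bin 1.42, 1.48 and 1.36. The last bin of the interval, chr1:75116801-75123200 beyond the gap on the Nhej1 side, kept 1.81 ± 0.17, within the untreated range. Contact also rose around the Cdk5r2 start bin, which went from 1.00 in 1B1 to 1.65, a log2 change of 0.72 ± 0.15. Both neighbours of that bin changed more, and they are poorer in CpG. The bin after it, with 29 CpG against 301 in the Cdk5r2 start bin, had 0.874, 1.06 and 0.674 in the untreated lines and 1.49 in 1B1 -cohesin, and its change of 1.14 ± 0.24 from 1B1 was the highest of the profile. The bin before it, with 66 CpG, went from 0.766 to 1.44, a change of 0.91 ± 0.20.

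**Figure D5:**
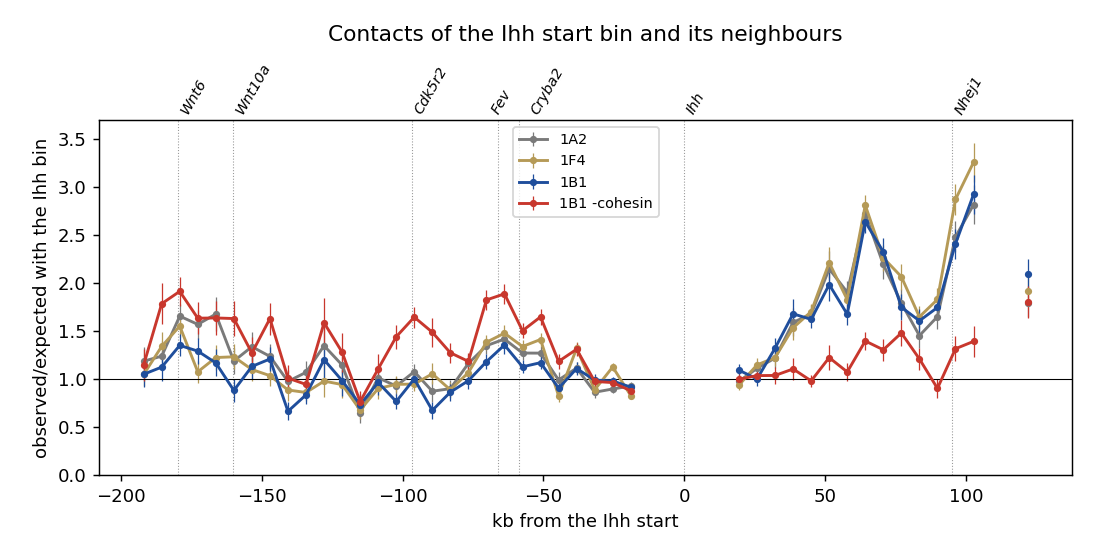
Observed/expected between the Ihh start bin with its 2 neighbours and each other bin of the interval, against distance from the Ihh start in kb, with counting errors of 1 SD. On the Nhej1 side 1B1 -cohesin runs below the untreated lines in 12 of 15 bins, and towards Wnt6 it runs above them in 20 of 28.

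Ihh-Cdk5r2 joined the bins richest in CpG and gained most among the pairs of gene starts described here. Across the second boundary at 15 bins, it gave 0.960 ± 0.06 in 1A2, 0.983 ± 0.05 in 1F4, 0.814 ± 0.05 in 1B1, against 1.53 ± 0.07 in 1B1 -cohesin. The log2 change from 1B1 was 0.91, and the treated value was 1.55 times the highest untreated value. Ihh-Nhej1, also 15 bins apart, gave 2.32, 2.65 and 2.36 in the untreated lines and 1.20 in 1B1 -cohesin, a change of -0.97. At equal separation both partners of Ihh thus moved in opposite directions, and after treatment Ihh-Cdk5r2 was the higher. Ihh-Ccdc108, 3 bins apart, gave 0.914 to 0.968 in the untreated lines and 0.935 in 1B1 -cohesin, within the untreated range.

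Cdk5r2 had fewer contacts with both Wnt genes in 1B1 -cohesin. Cdk5r2-Wnt6, 13 bins apart, gave 2.21, 2.29 and 2.10 in the untreated lines and 1.30 in 1B1 -cohesin. Cdk5r2-Wnt10a, 10 bins apart, gave 2.25, 2.31 and 2.15 in the untreated lines and 1.33 in 1B1 -cohesin. The log2 changes from 1B1 were -0.69 and -0.70. Cdk5r2-Fev and Cdk5r2-Cryba2, over the second boundary, rose above the untreated range, to 1.21 from 1.04 and to 1.13 from 0.929 in 1B1.

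Contact of Ihh with a bin went with CpG number in opposite ways before and after treatment. Over the 43 bins of the Ihh profile, Spearman's rho of contact with CpG number was -0.23 in 1A2, -0.31 in 1F4, -0.31 in 1B1, against 0.49 in 1B1 -cohesin. Towards Wnt6 alone, over 28 bins, rho was 0.49, 0.45 and 0.46 in the untreated lines and 0.51 in 1B1 -cohesin. The change of sign was thus seen over the whole profile and not towards Wnt6 alone. Bins share the Ihh window and the library, so these values describe the profile.

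In medians, the relation was not seen as clearly over all windows of the interval. Among pairs at least 8 bins apart, 37 windows joined 2 bins of the top 10% of CpG number (at least 117), and their median log2 change from 1B1 was 0.09. It was 0.01 over the 445 windows that joined none and -0.03 over the 289 that joined 1. In the rest of the region these medians were 0.02 over 343 windows, 0.06 over 13813 and -0.05 over 2426. Windows at least 25% above the highest untreated library were 21.6%, 13.5% and 7.96% in the interval, in the same order. In the rest of the region they were 11.4%, 14.7% and 9.98%. The share of high windows was thus largest for CpG-rich pairs in the interval, with 8 of 37 windows.

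Focal contacts were called where a window exceeded its ring of 5 to 11 bins by 50% in both 1A2 and 1F4 with at least 100 reads. The interval had 2 among 666 windows with these reads, beside 33 among 13260 in the whole region. The 2 shared the anchor chr1:74822401-74828800 in the Wnt6 body. The first joined it to chr1:74905601-74912000, the bin after Cdk5r2, 83.2 kb away. It had observed/expected of 2.48 ± 0.09 in 1A2, 2.54 ± 0.08 in 1F4, 2.27 ± 0.08 in 1B1, against 1.45 ± 0.07 in 1B1 -cohesin, a log2 change of -0.64 ± 0.09.

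The second focal contact joined the Wnt6 anchor to chr1:75065601-75072000 inside Nhej1, 243.2 kb away and across the second boundary. It had 1.81 ± 0.13, 1.73 ± 0.11 and 1.64 ± 0.12 in the untreated lines and 1.24 ± 0.12 in 1B1 -cohesin, a change of -0.40 ± 0.18. The window over its ring fell from 1.73 to 1.38 in the first and from 1.42 to 1.09 in the second between 1B1 and 1B1 -cohesin. These ratios in 1A2 and 1F4 chose the contacts, whereas 1B1 and 1B1 -cohesin were not used for the choice.

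With an excess of 25% over the ring there were 5 focal contacts, or 0.751% of the 666 windows, beside 75 or 0.566% of the 13260 in the region. The share at 50% was 0.3% in the interval and 0.249% in the region, so the interval lay near the region at both thresholds. Of the 5, the 3 added by the lower threshold had their anchors at the Ihh start bin. That of Ihh with chr1:75052801-75059200 in the Nhej1 body had 2.26, 2.29 and 2.10 in the untreated lines and 1.23 in 1B1 -cohesin. That with the Fev start bin had 1.35, 1.40 and 1.22 in the untreated lines and 1.74 in 1B1 -cohesin. That with the Wnt6 body had 1.63, 1.28 and 1.27 in the untreated lines and 1.73 in 1B1 -cohesin, so that 1A2 lay close to the treated value and the other untreated lines well below it.

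Contacts of the interval with its flanks differed by side. With the 50 bins before it, observed/expected was 0.706 ± 0.01 in 1A2, 0.728 ± 0.01 in 1F4, 0.748 ± 0.01 in 1B1, against 0.745 ± 0.01 in 1B1 -cohesin. With the 50 bins after it the values were 1.28, 1.23 and 1.31 in the untreated lines and 1.43 in 1B1 -cohesin, a log2 change of 0.13 ± 0.01. Contacts over the Wnt6 edge thus stayed below the regional average in each library, and those over the Nhej1 edge lay above the untreated range after treatment.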

How the data were processed

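Tiled Capture-C was measured in 4 libraries, 1 per group as the labels give them. The authors mapped reads to mm9 with HiC-Pro 2.11.4, kept unique valid pairs within the captured regions, counted them in bins of 6.4 kb and balanced each map by ICE, and the deposited values are this balanced signal, scaled to the same sum in every library. Balancing evens the coverage of bins and hides depth. Each value is a whole read number times a factor per bin, so read numbers were recovered by linear programming, with all values within 0.05 of a whole number, and gave the counting errors. Errors cover counting alone, since PCR reads without identifiers are not independent molecules. Recovery and window calls were also run on simulated data, with no outcome reported here. Observed/expected used the mean at each separation over the chromosome 1 region of that library. Windows had 3 by 3 bins, were 3 to 49 bins apart and had at least 50 reads in each library. Boundaries were minima within 5 bins that lay at least 0.3 below the highest score within 15 bins on both sides. Named were the 5 genes of the interval's label with their 10 pairs, other coding genes as partners of Ihh, all boundaries and focal contacts, the 3 top bins of the Ihh profile and the motif matches of boundary bins. The pairs of Cdk5r2 with other genes, the domain blocks, the averages of Ihh over the Nhej1 body and over the bins towards Wnt6, the CpG comparisons and the remaining matches were added after the values were seen. The members and lists were chosen with earlier results of these data known. Alternatives changed the window, expected value, balancing, scaling, insulation square, interval edges and thresholds. Sequences came from NCBIM37, whose chromosome 1 length equals that of the bin table. Python 3.11.15, NumPy 2.4.6, pandas 2.3.3, SciPy 1.17.1 and Matplotlib 3.10.9 were used.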

Additional observations from a re-analysis of the deposited data

How the results depend on the processing

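The interval was moved 5 bins either way, reads were used without balancing, and the expected value was taken from the regions of chromosomes 1, 15 and X together. In the order 1A2, 1F4, 1B1 and 1B1 -cohesin, mean observed/expected of the interval was 1.51, 1.51, 1.47 and 1.34 with the expected value of 3 regions, and 1.39, 1.40, 1.35 and 1.27 without balancing. It was 1.15, 1.13, 1.12 and 1.08 with the interval 5 bins lower, and 1.24, 1.22, 1.21 and 1.19 with it 5 bins higher, so 1B1 -cohesin was the lowest throughout. Band changes without balancing were 0.44, -0.12, -0.32 and -0.39 from short to far, and 0.13, -0.42, -0.56 and -0.53 with scaling to all separations.

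The change at the first boundary was 0.084 without balancing, 0.22 with a square of 5 bins, -0.13 with 20 bins and -0.10 on observed/expected. The second gave 0.30 without balancing and the third 0.13 with 20 bins. Wnt6-Wnt10a reversed to 0.11 as a single bin pair and to 0.34 without division by expected. With 5 by 5 bins 6 gene pairs lay below the untreated range, and without division 2 of the 4 Ihh pairs lay above it.

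In alternatives chosen after seeing the data, the Wnt domain changed by 0.070 without division and the Ihh domain by 0.12, both reversed, and pairs between them by 0.044. The Wnt domain changed by -0.36 without balancing. At 8 or more bins the Wnt domain changed by -0.61, the Ihh domain by -0.41 and Ihh with Nhej1 by -0.70. Without division at these separations the domains changed by -0.53 and -0.38 and pairs between them reversed to -0.027. Ihh with Nhej1 changed by -0.32 without division at all separations. Apart from the bands, undivided values were not run with maps scaled to all separations.

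An excess of 25% over the ring gave 5 focal contacts. A factor of 1.5 left 12 windows (1.22%) above and 78 (7.92%) below the untreated range, beside 3.17% and 3.14% in the region. The flank changes were -0.050 and 0.089 with the expected value of 3 regions and 0.048 and 0.20 without balancing. Leaving out a replicate was not possible with 1 library per group. No paired analysis was possible because each group had 1 library.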
